A study of Danio rerio with 14 samples.

Results

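The regions described here are close pairs of H2A.Z peaks: neighbouring peaks on the assembled chromosomes 1 to 25 of zebrafish that lay at most 1500 bp apart and away from dense runs of peaks. A peak was a member if the gap to its nearest neighbour, the next start minus the end, was at most 1500 bp and fewer than 9 other peaks started within 50000 bp of its own start. Chromosome 4 from 25000000 was left out. The rule used positions alone and no measured level or change. The peaks themselves come from the peak set of each comparison, so a peak that was high in a single group can be a member. It chose 751 of 29854 peaks in the table of 5-AzaC against DMSO and 636 of 28988 in the table of TDCIPP against DMSO. Every one of these 751 and 636 members had a partner that was a member too, so the members formed 377 and 320 pairs of adjacent peaks.

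H2A.Z is a variant of histone H2A that remodelling complexes such as SRCAP and p400 exchange into nucleosomes. It is best known from the nucleosomes on either side of the open stretch of DNA at promoters and enhancers, so that 1 regulatory element can carry H2A.Z on both flanks. In the early zebrafish embryo, before and around the start of transcription, nucleosomes with H2A.Z mark DNA that lacks methylation, and H2A.Z and DNA methylation tend to exclude each other. Whether the peaks of a pair flank 1 such element was not tested. Pairs of nearby peaks allow the question whether neighbouring stretches of H2A.Z gained or lost signal together when the embryos were exposed to a compound.

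H2A.Z was mapped by CUT&Tag, in which an antibody brings a transposase to the chromatin it binds and the transposase cuts and tags the DNA there. Embryos of wild-type AB/Tuebingen fish formed 3 groups, kept at about 50 embryos per well in 5 mL. The 5-AzaC group (3 samples) was treated at 100 µM, starting at the 1-cell stage. The TDCIPP group (2 samples) was held at 3.12 µM, starting 0.75 hours after fertilization. The DMSO group (3 samples) received 0.1% DMSO as the control. All were whole embryos at 6 hours after fertilization, with about 10000 cells per library, and the polyclonal antibody was the same in all groups. 5-AzaC is a nucleoside analogue that traps DNA methyltransferases, and TDCIPP is a chlorinated organophosphate used to slow burning in foams and textiles. Embryos that overexpressed H2A.Z made up 6 of the 14 samples and were not analysed here. The labels do not say whether replicates came from separate clutches, so the p-values may measure only technical spread between these samples.

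The tables hold 1 level per group and peak, so no value of a single library, no SD and no read depth can be given, and the replicate spread enters only through the authors' p-values and FDRs. Levels are the log2 of mean normalised reads per peak, and a log2 change is the treated level minus the DMSO level. Peaks with a deposited FDR of 1 were outside the adjustment the authors made, and the rest are called tested here. A peak was called lower or higher at a deposited FDR under 0.05. Both comparisons use the same DMSO samples, so their values are given side by side and not as separate evidence.

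The paired peaks were narrow and their gaps were rarely short. The median width of members was 666 bp in the 5-AzaC table and 658 bp in the TDCIPP table, against 795 bp and 781 bp for the other assembled peaks outside dense runs. Within a pair the median width of the wider peak was 887 bp (5-AzaC table) and 861 bp (TDCIPP table), and that of the narrower peak 495 bp and 493.5 bp. The median gap was 1178 bp and 1204.5 bp, and the median distance between the centres of partners was 1926 bp and 1925 bp. Only 25 of 377 gaps and 17 of 320 were 750 bp or shorter. Another 55 and 41 lay between 750 and 1000 bp, while the next 250 bp held 147 and 123 and the last 250 bp below the limit 150 and 139. From 1500 to 5000 bp the counts per 250 bp stayed between 95 and 196 in the 5-AzaC table and between 83 and 175 in the TDCIPP table, so no peak in the histogram marks off the close pairs from pairs with somewhat wider gaps. The sources used here do not give the settings with which nearby peaks were merged.

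**Figure D1:**
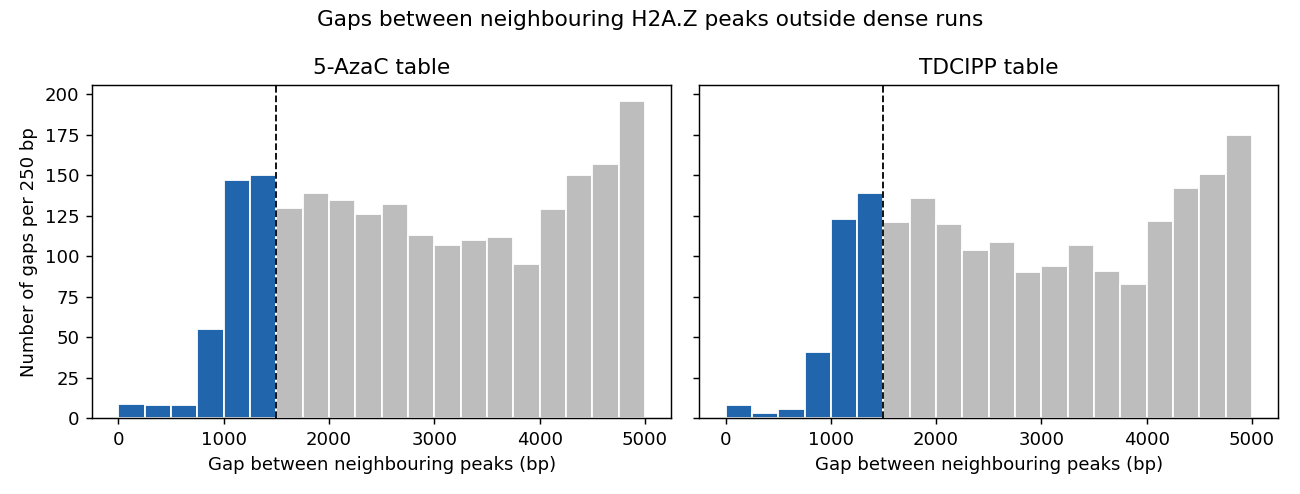
Number of gaps between neighbouring peaks outside dense runs (vertical axis, per 250 bp) by gap in bp (horizontal axis), for the 5-AzaC table on the left and the TDCIPP table on the right. Blue bars are the close pairs and the dashed line is the limit of 1500 bp. Gaps of 750 bp or less number 25 and 17, and the first bars past 1000 bp hold 147 and 123.

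Members were spread over all 25 chromosomes. They made up between 1.05% (chromosome 4) and 5.07% (chromosome 10) of the peaks of a chromosome in the 5-AzaC table, and between 0.742% (chromosome 4) and 4.66% (chromosome 10) in the TDCIPP table. Chromosome 4 is low partly by construction, since its part from 25000000 was left out of the members but not of its peaks. Nearly all pairs stood alone: 371 of 374 chains in the 5-AzaC table and 312 of 316 in the TDCIPP table had exactly 2 peaks, and the other 3 and 4 chains had 3 peaks.

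H2A.Z levels at paired peaks were mostly lower in treated embryos than in DMSO embryos, to about the same degree as elsewhere. The median level of members was 3.19 in 5-AzaC and 3.84 in DMSO embryos on the log2 scale, and 3.375 in TDCIPP and 3.935 in DMSO embryos for the members of the other table. The median log2 change of the 751 members was -0.70 after 5-AzaC (interquartile range -1.01 to -0.27), beside -0.69 for the other peaks outside dense runs and -0.70 for all peaks. After TDCIPP it was -0.56 for members (-1.03 to -0.08), beside -0.58 and -0.53. The change was below 0 in 638 of 751 members (85.0%) after 5-AzaC and in 492 of 636 (77.4%) after TDCIPP, against 86.0% and 71.8% of all peaks. Since whole embryos were used, a lower level in some cells and a smaller lowering in every cell cannot be told apart. How far the general shift depends on the normalisation of the libraries was not tested, since neither depth nor settings are given.

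Lower calls among paired peaks were about as frequent as over the whole tables. After 5-AzaC, 98 members (13.0%) were called lower in the authors' deposited table, where 12.5% of all peaks were, and 6 (0.799%) were called higher, where 0.301% were. After TDCIPP, 43 members (6.76%) were lower against 5.81% of all peaks, and 4 (0.629%) were higher against 1.21%. Members were more often inside the authors' adjustment than all peaks, at 562 of 751 (74.8%, against 67.0%) and 445 of 636 (70.0%, against 59.3%). Among tested members, 17.4% were lower after 5-AzaC where the background was 18.7%, and 9.66% after TDCIPP where it was 9.81%. The corresponding background for higher calls was 0.45% of tested peaks for 5-AzaC and 2.05% for TDCIPP. The shares of lower calls lie near their background and are no result about paired peaks, and the higher calls are too few (6 and 4) to read against theirs. The direction of the calls is tied to the general shift: tested approximately against the median of all peaks (-0.70 and -0.53), 21 members were called after 5-AzaC, 0 lower and 21 higher, and 14 after TDCIPP, 2 lower and 12 higher. No share over all peaks is given for this test, so these counts are no result about paired peaks. The median log2 change of the called-lower members was -1.26 after 5-AzaC and -1.55 after TDCIPP.

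The share of lower calls grew with peak strength up to a mean level of 6, and the strongest paired peaks had values unlike those of the other strong peaks. At mean levels from 3 to 4, 27 of 290 members (9.31%) were lower after 5-AzaC, beside 7.62% of the other peaks outside dense runs. From 4 to 5 the shares were 27.3% and 26.0%. From 5 to 6 they were 19 of 49 members (38.8%) and 54.7% of the others, and at 6 or more 3 of 17 members and 50.2% of 255 others. The median log2 change at 6 or more was 0.55 for members and -0.77 for the others after 5-AzaC, and 0.22 and -0.63 after TDCIPP, where 2 of 23 members and 30.7% of 322 others were lower. In every band of mean level members were narrower, for example 654 bp against 807 bp from 3 to 4 in the 5-AzaC table. The strongest members are few and some lie next to each other, and the difference from the others was not tested.

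Both partners were called in few pairs, and lower calls made up only 13.0% (5-AzaC) and 6.72% (TDCIPP) of all ends of pairs. After 5-AzaC both partners were called lower in 10 of 377 pairs (2.65%), 1 partner alone in 78, and neither in 283. After TDCIPP both were lower in 5 of 320 pairs (1.56%), 1 alone in 33, and neither in 278. Lower-called peaks with a lower-called partner numbered 20 among the 377 close pairs for 5-AzaC. At gaps of 1500 to 5000 bp they numbered 86 among 1831 pairs, and 338 among 5204 at 5000 to 15000 bp. At 15000 to 50000 bp they numbered 372 among 8547. For TDCIPP they were 10 among 320, 32 among 1645, 78 among 4966 and 128 among 8166. Whether close pairs differ from other neighbours in this was not tested. No close pair had both partners called higher, and in the 6 pairs (5-AzaC) and 4 pairs (TDCIPP) with a higher call the partner was not called. No pair had 1 partner lower and the other higher in either table, and with 6 and 4 higher calls in all few such pairs could arise. By sign alone, both partners were below 0 in 293 pairs (77.7%) after 5-AzaC and in 207 (64.7%) after TDCIPP, both above 0 in 30 and 33, and on opposite sides of 0 in 51 and 80. Because most peaks lay below 0, partners were also compared with the median of their table. They lay on the same side of it in 199 of 377 pairs (52.8%) for 5-AzaC and in 185 of 320 (57.8%) for TDCIPP, and on opposite sides in 170 and 124. When peaks were tested approximately against that median, no pair was lower at both peaks, and 9 pairs for 5-AzaC and 1 for TDCIPP were higher at both. No such count is given for other neighbours, so these counts are no result about close pairs.

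**Figure D2:**
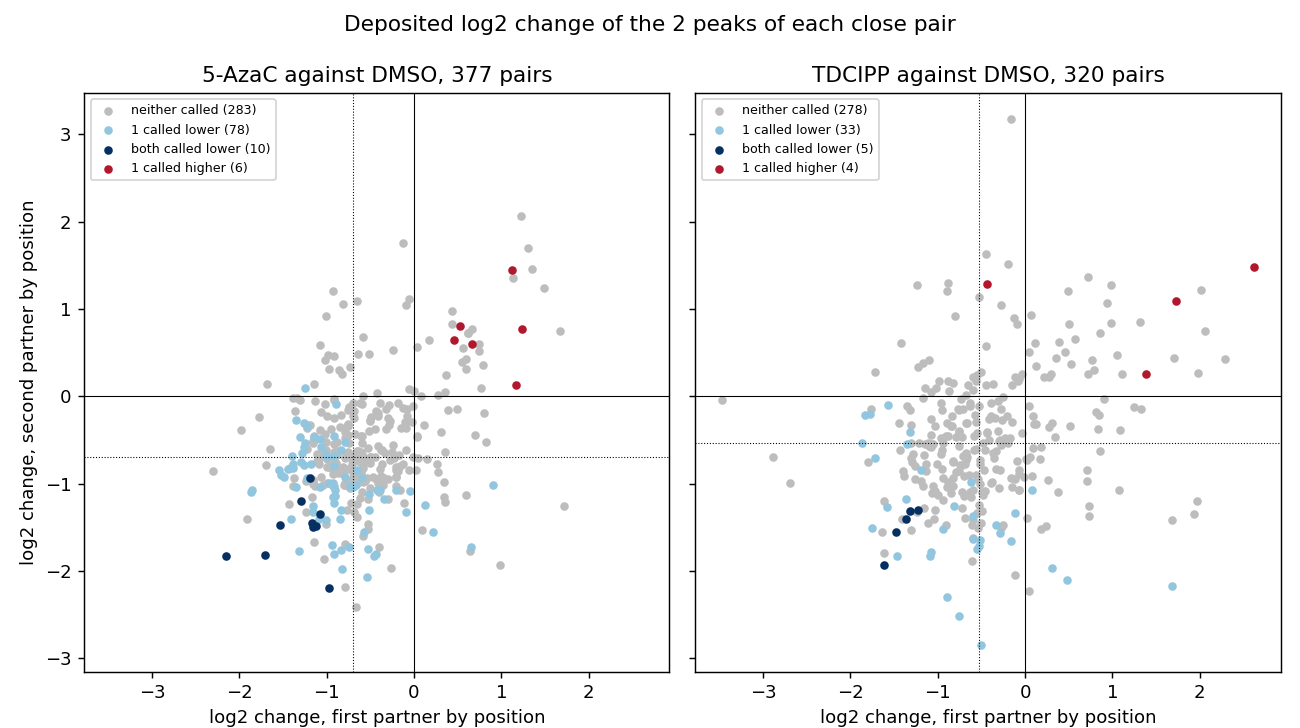
Deposited log2 change of the first partner (horizontal axis) and the second partner (vertical axis) of each close pair, by position on the chromosome, for 5-AzaC against DMSO on the left and TDCIPP against DMSO on the right. Dotted lines mark the median of all peaks (-0.70 and -0.53), and colours mark calls: both partners were lower in 10 and 5 pairs, and the pairs with both changes well above 0 form an arm at the upper right.

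A peak called lower usually had a partner with a change below 0 that did not itself pass the test, and most peaks that were not called had partners below 0 too. In the 5-AzaC comparison 20 of the 98 peaks called lower (20.4%) had a partner called lower, against a share of 13.0% lower calls among all ends of pairs. For TDCIPP it was 10 of 43 (23.3%) against 6.72%. The partners of lower-called peaks had a median log2 change of -0.82 after 5-AzaC and -0.71 after TDCIPP, beside -0.69 and -0.56 for the partners of peaks that were not called. Of the partners of lower calls, 93 of 98 were below 0 after 5-AzaC and 39 of 43 after TDCIPP, beside 545 of 650 and 454 of 593 partners of uncalled peaks. Partners resembled each other in mean level, and peaks called lower had higher mean levels than uncalled peaks. Their medians were 4.38 against 3.44 for 5-AzaC and 4.55 against 3.7 for TDCIPP. Whether level accounts for the shares of lower-called partners was not tested. Where both partners were above the median level, 14 of 66 lower-called peaks had a lower-called partner after 5-AzaC (21.2%, against 20.2% of all ends of such pairs), and 8 of 29 after TDCIPP (27.6% against 9.93%).

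Where only 1 partner was called lower, it had the higher level over all samples of its comparison in most pairs. After 5-AzaC this held in 63 of 78 such pairs, with a median mean level of 4.30 for the called and 3.66 for the uncalled partner, and after TDCIPP in 27 of 33, with medians of 4.54 and 3.73. The uncalled partner had a median log2 change of -0.70 after 5-AzaC, against -1.26 for the called one, and of -0.55 after TDCIPP, against -1.63. It was below 0 in 73 of 78 and 29 of 33 pairs. The level over all samples contains the compared groups. Ranked by the level in embryos treated with the other compound, lower calls were split more evenly. They numbered 43 on the stronger and 36 on the weaker partner (5-AzaC) and 23 and 15 (TDCIPP), over all lower calls of matched pairs. A peak lower after both compounds ranks lower by that level, so this ranking is not neutral either. An approximate test of the difference between partners, with errors derived from the deposited p-values, separated them in 0 of the 78 and 0 of the 33 pairs after Benjamini-Hochberg adjustment. At an unadjusted p under 0.05 it separated 6 and 7. A call at 1 partner alone is thus no measured difference between partners.

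The 5 pairs with both partners called lower and the smallest FDRs were chosen on these values in each comparison, so their like direction is part of the choice. The first by the FDR rule for 5-AzaC lay on chromosome 14, with peaks from 16081326 to 16082873 and from 16083847 to 16084632. In the authors' deposited table the first peak had levels of 4.70 in 5-AzaC and 5.86 in DMSO embryos (log2 change -1.16, FDR 0.0165), and the second 3.73 and 5.23 (-1.50, FDR 0.00563). In the TDCIPP comparison of the authors' deposited table the first of them was called lower (log2 change -1.47, FDR 0.0174) and the second was not (-1.83, FDR 0.0925), although its change was the larger. The second pair, on chromosome 18 from 26993643 to 26995732, had levels of 1.67 and 2.30 in 5-AzaC and 3.82 and 4.13 in DMSO embryos in the authors' deposited table. After 5-AzaC its log2 changes there were -2.15 and -1.83. After TDCIPP the overlapping peaks had log2 changes of -1.72 and 0.28 in the authors' deposited table, neither of them called.

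A pair on chromosome 5 was lower at both peaks in both comparisons. Its peaks ran from 55624608 to 55625472 and from 55626433 to 55627935 in the 5-AzaC table. The first had levels of 4.47 in 5-AzaC and 5.65 in DMSO embryos, and the second 5.73 and 6.67, with log2 changes of -1.19 (FDR 0.0134) and -0.94 (FDR 0.028) in the authors' deposited table. In TDCIPP embryos the levels were 4.33 and 5.36, with DMSO levels of 5.65 and 6.67 again, and the log2 changes were -1.32 (FDR 0.0325) and -1.31 (FDR 0.0145) in the authors' deposited table. A pair on chromosome 15, from 28428036 to 28431174, was also lower at both peaks in both comparisons, with log2 changes of -1.07 and -1.35 after 5-AzaC and of -1.36 and -1.40 after TDCIPP in the authors' deposited table. Of the other named pairs, that on chromosome 10 from 15452729 to 15455753 had TDCIPP log2 changes of -1.48 and -1.55, with both overlapping peaks lower after 5-AzaC as well (-1.17 and -1.45, FDR 0.0284 and 0.0108 in the authors' deposited table). The pairs on chromosome 3 from 25986874 to 25990546 (-1.23 and -1.30 after TDCIPP) and on chromosome 18 from 19114327 to 19117952 (-1.61 and -1.93) were lower at both peaks after TDCIPP in the authors' deposited table. In the authors' deposited table for 5-AzaC neither peak of the chromosome 3 pair and 1 peak of the chromosome 18 pair were called. The last named for 5-AzaC, on chromosome 15 from 1764739 to 1767294, had log2 changes of -1.70 and -1.82 in the authors' deposited table. Across these 5 pairs for each comparison the difference between partners was at most 0.34 on the log2 scale, less than its approximate standard error in each case. A choice of small FDRs at both peaks also favours changes of like size. The small differences are therefore no evidence that partners changed together.

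Across pairs, changes of partners were weakly to moderately alike. With each pair entered in both orders, Pearson's r of log2 change between partners was 0.37 over the 377 pairs of 5-AzaC and 0.27 over the 320 pairs of TDCIPP. Spearman's rho was 0.23 and 0.24. The points share libraries, and partners also resembled each other in mean level (r of 0.61 and 0.60). After the median change of peaks of like level was taken out, r was 0.38 and 0.24. The median absolute difference in log2 change between partners was 0.45 for 5-AzaC and 0.575 for TDCIPP, and it exceeded 1 in 61 (16.2%) and 82 (25.6%) pairs. The approximate standard error of such a difference, with errors of partners treated as independent, had medians of 0.76 and 0.87. The median differences between partners were smaller than these. Those of neighbours 15000 to 50000 bp apart (0.51 and 0.68) were smaller too, so this does not show that partners changed together.

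Pearson's r between neighbours decreased with the gap in the 5-AzaC comparison and less regularly in the TDCIPP comparison. For 5-AzaC the shares of neighbours with like direction or with shared calls did not fall steadily with the gap. For TDCIPP the share with shared calls was highest in the close pairs, where it rests on 5 pairs. Among adjacent peaks outside dense runs, r for 5-AzaC was 0.37 in the close pairs, 0.24 at gaps of 1500 to 5000 bp (1831 pairs), 0.17 at 5000 to 15000 bp (5204 pairs) and 0.071 at 15000 to 50000 bp (8547 pairs). For TDCIPP the values were 0.27, 0.32 (1645 pairs), 0.17 (4966 pairs) and 0.077 (8166 pairs), so that the close pairs were no more alike than the next class. With both peaks above the median level, the 4 classes gave 0.58, 0.49, 0.32 and 0.10 (5-AzaC), and 0.40, 0.51, 0.32 and 0.14 (TDCIPP). The median absolute difference moved little, from 0.45 and 0.44 in the nearest classes to 0.51 in the farthest for 5-AzaC, and from 0.575 and 0.58 to 0.68 for TDCIPP. Within the close pairs, the 25 pairs with gaps up to 750 bp had an r of -0.20 for 5-AzaC and the 17 such pairs of TDCIPP an r of -0.083. The classes from 750 to 1500 bp ranged from 0.36 to 0.48 and from 0.25 to 0.31. The share of neighbours on the same side of the table median was 52.8%, 53.3%, 54.1% and 50.7% over the 4 classes for 5-AzaC and 57.8%, 59.0%, 56.0% and 53.8% for TDCIPP. The share of lower-called peaks with a lower-called neighbour was 20.4%, 17.0%, 22.3% and 16.1% for 5-AzaC. Lower calls made up 13.0%, 13.8%, 14.6% and 13.5% of all ends of these pairs. For TDCIPP the counts were 10 of 43, 32 of 218, 78 of 707 and 128 of 1162. Of all ends there, 6.72%, 6.63%, 7.12% and 7.11% were lower. With both peaks above the median level the shares for 5-AzaC were 21.2%, 22.4%, 33.9% and 27.3%. The shares of lower calls among all such ends were 20.2%, 23.3%, 27.2% and 25.6%, so both series were lowest in the close pairs. For TDCIPP the shares were 27.6%, 20.1%, 18.1% and 19.2%, beside 9.93%, 12.0%, 12.8% and 14.2% of all such ends. These are descriptions over pairs of the same libraries and carry no test.

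**Figure D3:**
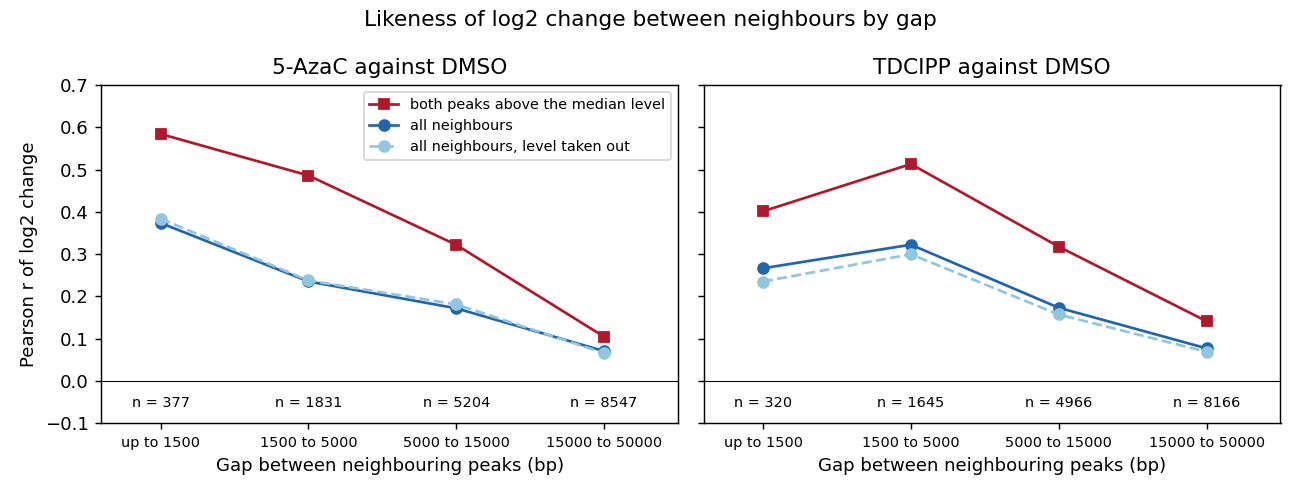
Pearson r of the log2 change between neighbouring peaks outside dense runs (vertical axis) by class of gap in bp (horizontal axis), for 5-AzaC against DMSO on the left and TDCIPP against DMSO on the right, with the number of pairs under each class. For all neighbours r goes from 0.37 to 0.071 with growing gap for 5-AzaC, while for TDCIPP the class from 1500 to 5000 bp (0.32) lies above the close pairs (0.27).

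In a small group of very strong pairs both partners mostly lay on the same side of 0. In 13 pairs of the 5-AzaC table a partner had a mean level of 6 or more, a threshold chosen after the values were seen. In 8 of these both changes were above 0 and in 5 both were below 0, with no pair on opposite sides. Among the 364 pairs under that level 22 were above 0 at both peaks, 288 below 0 at both and 51 on opposite sides, and r over these 364 was 0.30. Of the 16 such pairs in the TDCIPP table, 9 were above 0 at both peaks, 5 below 0 at both and 2 on opposite sides, and r over the other 304 pairs was 0.23. With both partners under 6 but above the median level, r was 0.38 over 151 pairs of 5-AzaC and 0.31 over 130 pairs of TDCIPP. Spearman's rho over the same pairs was 0.15 and 0.19. Neighbouring pairs of a chain share a peak, and others lie close together. Counted once per chain, 6 lay above 0 and 5 below 0 for 5-AzaC, and 8 above, 5 below and 2 on opposite sides for TDCIPP. With pairs within 50000 bp of each other counted as 1 locus, 5 loci lay above 0 and 5 below 0 for 5-AzaC, and 7 above, 5 below and 2 mixed for TDCIPP. The approximate test found no difference between partners at an unadjusted p under 0.05 in any of the 13 or 16 pairs.

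The strongest pairs lay on chromosome 16, where 2 pairs stood close together. In the first, from 25927338 to 25934839, the peaks were 2675 bp and 3649 bp wide. Their levels in the authors' deposited table were 8.77 and 9.31 in 5-AzaC and 8.31 and 8.67 in DMSO embryos. The log2 changes were 0.46 (FDR 0.0851) and 0.64 (FDR 0.0239) in the authors' deposited table, so that the second peak rose. In the next pair, from 25940519 to 25944029, levels were 7.64 and 8.05 in 5-AzaC and 7.11 and 7.25 in DMSO embryos and the second peak again rose (log2 changes 0.53 and 0.80, FDR 0.0957 and 0.0244 in the authors' deposited table). After TDCIPP the 4 overlapping peaks had log2 changes of -0.07, 0.20, 0.05 and 0.51 in the authors' deposited table, none of them called.

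The other pairs with a higher call after 5-AzaC also had partners above 0. On chromosome 8, from 34798651 to 34804244, the levels were 8.36 and 7.02 in 5-AzaC and 7.70 and 6.42 in DMSO embryos, and the first peak rose (log2 changes 0.67 and 0.60, FDR 0.0233 and 0.0879 in the authors' deposited table). Near the start of chromosome 7, from 4517 to 8637, the log2 changes were 1.24 and 0.77, with the second peak called (FDR 0.186 and 0.0435 in the authors' deposited table). On chromosome 18, from 31577563 to 31581550, they were 1.12 and 1.45 (FDR 0.0639 and 0.0492 in the authors' deposited table). On chromosome 10, from 12104128 to 12106974, the first peak rose by 1.17 (FDR 0.0305) and the second had a change of 0.13 (FDR 0.881) in the authors' deposited table. Across these 6 pairs the uncalled partner had a median log2 change of 0.565, from 0.13 to 1.24.

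After TDCIPP, 4 pairs held a higher call. On chromosome 19, from 18957917 to 18960037, levels were 5.96 and 4.59 in TDCIPP and 4.23 and 3.5 in DMSO embryos, with log2 changes of 1.73 (FDR 0.0028) and 1.09 (FDR 0.154) in the authors' deposited table. The overlapping peaks of the 5-AzaC comparison had log2 changes of -0.50 and -0.27 in the authors' deposited table, neither called. On chromosome 21, from 20880671 to 20882679, the changes were 2.62 (FDR 0.0147) and 1.48 (FDR 0.0791) in the authors' deposited table, with DMSO levels of only 1.76 and 2.71, and no peak of the 5-AzaC table overlapped either partner. Also on chromosome 21, from 26128249 to 26131241, they were 1.38 (FDR 0.0367) and 0.26 (FDR 0.632) in the authors' deposited table. On chromosome 5, from 57372089 to 57374388, the second partner rose by 1.29 (FDR 0.0389) while the first had -0.44 (FDR 0.546) in the authors' deposited table. In the 5-AzaC table a peak from 57372089 to 57373648 overlapped both partners of the chromosome 5 pair, and it was called lower (-1.49, FDR 0.0138 in the authors' deposited table). Another 5-AzaC peak, from 57373908 to 57374373, overlapped only the second partner and was not called (-0.92, FDR 0.187 in the authors' deposited table). These 6 and 4 pairs were named after their values were seen. A partner that was weak in DMSO embryos may be a member only through its level in treated embryos.

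**Figure D4:**
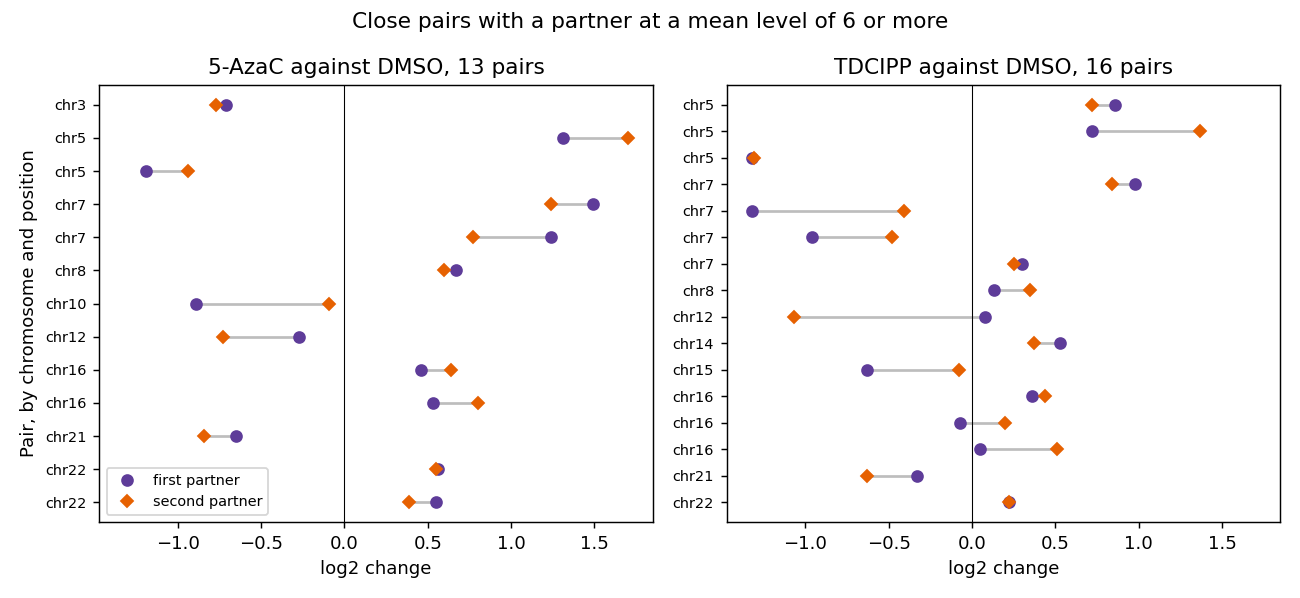
Deposited log2 change (horizontal axis) of the first partner (circles) and the second partner (diamonds) of each pair with a partner at a mean level of 6 or more, 1 line per pair, in order of chromosome and position, for 5-AzaC against DMSO on the left (13 pairs) and TDCIPP against DMSO on the right (16 pairs). The largest difference between partners is 0.8 and 1.15, and the lines cross 0 in 0 and 2 pairs.

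No pair had partners whose changes differed beyond their approximate errors after correction. In the approximate test of the difference between partners, 0 of 377 pairs passed an adjusted p of 0.05 for 5-AzaC (13 at an unadjusted p under 0.05, or 3.45%) and 0 of 320 for TDCIPP (23, or 7.19%). The smallest adjusted p was 0.782 for 5-AzaC and 0.0885 for TDCIPP. The median error of a difference was 0.76 and 0.87, and differences well above it did not pass: the pair with the smallest p had a difference of -1.87 with an error of 0.61 for 5-AzaC and of 3.85 with an error of 1.09 for TDCIPP. Even differences of this size between partners can therefore be missed.

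The 5 pairs with the smallest p in each comparison were described further. On chromosome 18, from 45854862 to 45858086, the peaks had levels of 4.28 and 2.56 in TDCIPP and 4.78 and 5.40 in DMSO embryos. In the authors' deposited table the second peak fell by 2.85 (FDR 2.24e-05), and the first had a change of -0.50 (FDR 0.43), a difference of 2.35 ± 0.68 (approximate SE, adjusted p = 0.0885 from the approximate test). In the 5-AzaC comparison the overlapping peaks had -0.53 and -1.75 in the authors' deposited table, with the second called (FDR 0.00121). On chromosome 10, from 6602433 to 6606531, the first peak was 607 bp and the second 2172 bp wide. The authors' deposited table gave log2 changes of -0.81 and 1.06 after 5-AzaC (FDR 0.15 and 0.0527), and -0.89 and 1.21 after TDCIPP (FDR 0.236 and 0.0853), none of them called. The pair was among the 5 in both comparisons, which share the DMSO samples, and its DMSO levels were 4.16 and 3.93 in the authors' deposited table of 5-AzaC.

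On chromosome 25, from 17918016 to 17920987, the DMSO levels of the partners were nearly equal at 4.81 and 4.84, and the levels in 5-AzaC embryos were 4.27 and 2.77. The second peak fell by 2.07 (FDR 0.00362) and the first had -0.54 (FDR 0.235) in the authors' deposited table. For TDCIPP the overlapping peaks had -0.89 and -2.30, with the second called (FDR 0.00645 in the authors' deposited table). In 5 other pairs the partner that was weaker by level over all samples had a change above 0 and the stronger one below 0. That level contains the compared groups. An example lay on chromosome 13 from 36609704 to 36612354. There the log2 changes after TDCIPP were 1.68 (FDR 1) and -2.17 (FDR 0.0381) in the authors' deposited table, with DMSO levels of 1.64 and 4.05. The levels in TDCIPP embryos were 3.32 and 1.89, so there the first partner was the stronger. That first peak may be a member only through its level in TDCIPP embryos. On chromosome 7, from 24879364 to 24882097, the partners had nearly equal levels over all samples of the TDCIPP comparison (4.86 and 4.81). Their levels were 5.26 and 3.94 in TDCIPP and 4.53 and 5.19 in DMSO embryos. The changes were 0.73 (FDR 0.282) and -1.25 (FDR 0.0584) in the authors' deposited table.

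Whether the stronger partner had the more negative change depended on how strength was measured. Ranked by level over all samples of the comparison, the stronger partner had the more negative change in 215 of 375 pairs (57.3%) for 5-AzaC, with medians of -0.76 for the stronger and -0.62 for the weaker peak, and in 190 of 319 (59.6%) for TDCIPP, with -0.68 and -0.51. That level contains the compared groups themselves. Ranked by the level in TDCIPP embryos, which are no part of the 5-AzaC comparison, the stronger partner had the more negative change in 115 of 247 pairs (46.6%), with medians of -0.72 and -0.78. Ranked by the level in 5-AzaC embryos, the stronger partner had the more negative TDCIPP change in 115 of 237 pairs (48.5%), with -0.62 and -0.67. A peak that fell after both compounds ranks lower by such a treated level, so this ranking is not neutral either. In the same matched pairs, ranking by the level of the comparison gave 55.1% and 55.5%. Ranked by width, the wider partner had the more negative change in 52.5% and 50.8% of pairs. Where lower calls fell also depended on the ranking. Ranked by the level of the comparison, 73 lay on the stronger and 25 on the weaker partner for 5-AzaC, and 32 and 11 for TDCIPP. In the matched pairs that ranking gave 57 and 22 for 5-AzaC, and 28 and 10 for TDCIPP. Ranked there by the treated level of the other table, 43 lay on the stronger and 36 on the weaker partner for 5-AzaC, and 23 and 15 for TDCIPP.

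The balance of H2A.Z within a pair was largely kept in the treated embryos. The partner that was stronger in 5-AzaC embryos was also the stronger in DMSO embryos in 286 of 375 pairs (76.3%). Between TDCIPP and DMSO embryos this held in 230 of 315 pairs (73.0%). Where the partners differed by 1 or more on the log2 scale in DMSO embryos, the same partner was stronger in 136 of 146 pairs in 5-AzaC (93.2%) and in 98 of 110 in TDCIPP embryos (89.1%). Where they differed by less than 0.5, the counts were 75 of 129 (58.1%) and 57 of 97 (58.8%). The median size of the difference in level between partners was 0.76 in 5-AzaC and 0.75 in DMSO embryos, and 0.69 in TDCIPP and 0.75 in DMSO embryos. Across the matched pairs of the 5-AzaC table, TDCIPP and 5-AzaC embryos, which share no samples, had the same stronger partner in 199 of 247 (80.6%). The width of the partners enters these levels, since they count reads per peak. The 80.6% covers matched pairs only, over which the agreement with DMSO embryos is not given. It can therefore not be set against the 76.3% and 73.0%. No such shares are given for other neighbours, so a kept balance is not shown to be particular to close pairs.

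**Figure D5:**
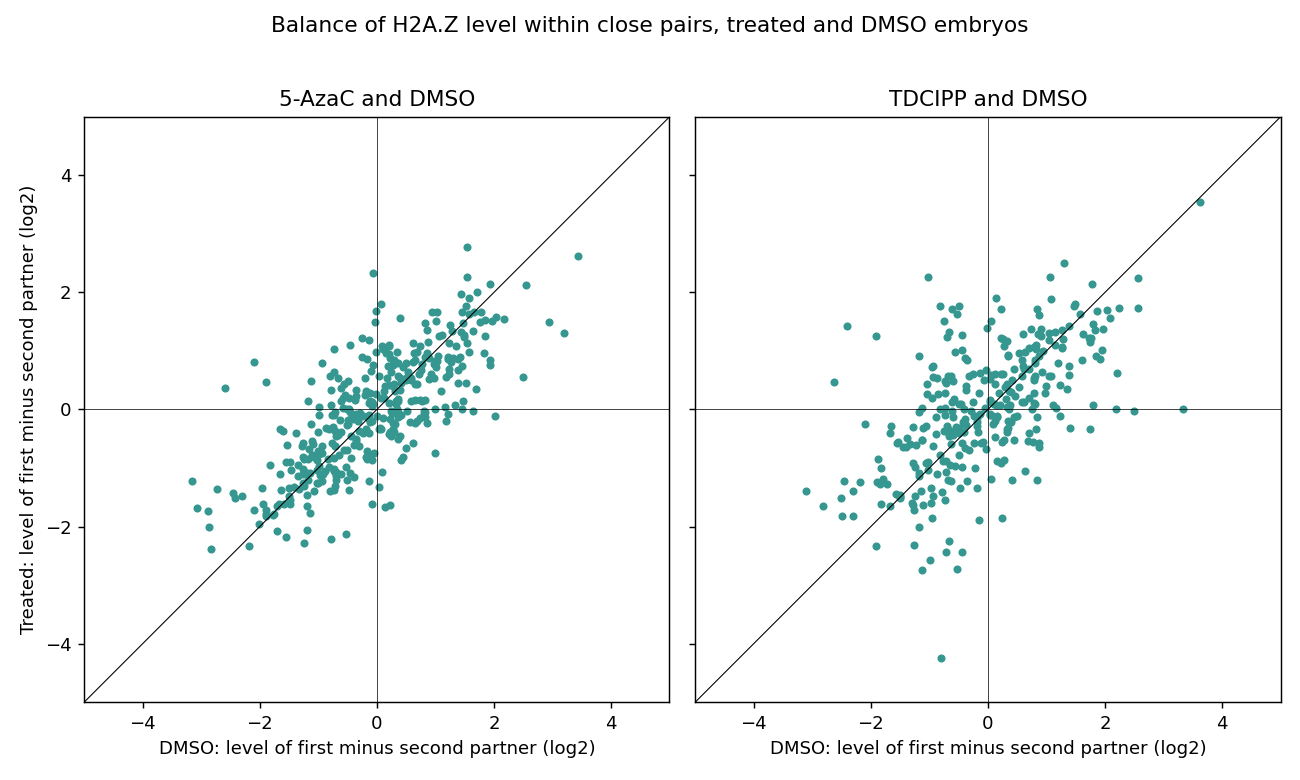
Level of the first minus the second partner on the log2 scale in treated embryos (vertical axis) and in DMSO embryos (horizontal axis), 1 point per close pair, for 5-AzaC on the left and TDCIPP on the right, with the line of equal difference. Points scatter along the line, and the same partner was the stronger in 286 of 375 and 230 of 315 pairs.

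Of the 7 chains of 3 peaks, 5 had changes on 1 side of 0 at all 3 peaks, and 2 did not. On chromosome 22, from 24518417 to 24525309, the peaks had levels of 6.14, 7.40 and 8.74 in 5-AzaC and 5.58, 6.85 and 8.35 in DMSO embryos, and log2 changes of 0.56, 0.55 and 0.39 in the authors' deposited table, none of them called. In the chain at the start of chromosome 7, from 2199 to 8637, the changes after 5-AzaC were 1.49, 1.24 and 0.77 in the authors' deposited table, with the last called. On chromosome 11, from 15141157 to 15144671, they were 1.67, 0.75 and 0.52 in the authors' deposited table, none called, with a DMSO level of only 0.78 at the first peak. In the TDCIPP table the chain on chromosome 13 from 52015099 to 52019436 had log2 changes of 0.46, 0.51 and -0.34, and that on chromosome 22 from 11141492 to 11146140 had 0.06, -0.69 and -0.78 in the authors' deposited table, none called. On chromosome 11, from 3494707 to 3499512, the TDCIPP changes were -1.08, -0.55 and -1.75 in the authors' deposited table, with the last peak called (FDR 0.0377). On chromosome 5, from 822568 to 827600, they were 0.86, 0.72 and 1.37 in the authors' deposited table, none called.

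Not every pair was a pair in both tables, since the peak sets were made separately. Of the 377 pairs of the 5-AzaC table, 224 (59.4%) were a close pair in the TDCIPP table too, and these were 70.0% of the 320 pairs there. In 19 pairs (5.04%) a single TDCIPP peak overlapped both partners, and 18 TDCIPP pairs (5.63%) were likewise overlapped at both partners by 1 peak of the 5-AzaC table. Only 1 partner overlapped any peak of the other table in 97 pairs (25.7%) and 63 pairs (19.7%). The pairs found in both tables were stronger, with median mean levels of 3.78 (5-AzaC) and 3.86 (TDCIPP), against 3.02 and 3.24 for pairs with 1 partner matched. They held 70 of the 98 lower calls at pair ends for 5-AzaC and 36 of 43 for TDCIPP. Over them r of log2 change between partners was 0.40 and 0.22. All 5 pairs named as lower at both peaks were close pairs in the other table as well, for 5-AzaC and for TDCIPP. The same DMSO samples enter both comparisons, and a peak called lower has its higher level in DMSO embryos. Such a peak can therefore be found in both peak sets through DMSO alone, and these shares are no separate evidence for the pairs.

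Around the limits of the rule, values of members and of the peaks next to the limit were as follows. Members with gaps in the last 100 bp below 1500 bp (117 peaks) had a median log2 change of -0.72 and 19 lower calls after 5-AzaC, and peaks in the first 100 bp above it (85 peaks) had -0.70 and 11. For TDCIPP the medians were -0.66 (114 peaks, 10 lower calls) and -0.51 (100 peaks, 2 lower calls). Members with 7 or 8 other peaks nearby had medians of -0.71 (61 peaks, 5-AzaC) and -0.48 (45 peaks, TDCIPP), against -1.01 (12 peaks) and 0.23 (10 peaks) with 9 or 10.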

How the data were processed

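The submitters' processing notes name Bowtie2, Picard, MACS2, deepTools and DiffBind and the build GRCz11, with no versions or settings. Per the file headers, the authors deposited for each consensus peak a log2 level over all samples, a log2 level per group, a log2 change, a p-value and an FDR. The change equals the treated minus the DMSO log2 level to within 0.01. No deposited column holds a single sample, and whether starts count from 0 or 1 is not stated in the sources used here. Coordinates are those of the tables.

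Members, pairs and counts were computed with Python 3.11.15, pandas 2.3.3 and scipy 1.17.1. Calls are the deposited FDR under 0.05, adjusted by the authors. The error of a change was taken as its size over the normal deviate of its p-value. For changes under 0.2 or a p of 0.9 or more, the median error of peaks of like level (50 bins) was used. Differences between partners were tested with these errors, treated as independent, and adjusted by Benjamini-Hochberg over all pairs of a table. The code was tested on simulated data. Peaks of the tables were matched by an overlap of at least 1 bp.

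Named pairs are the 5 with both partners lower and the smallest larger FDR, those with both higher or opposite calls (0 pairs), the 5 with the smallest p of the difference, and the 3 with the strongest weaker partner. Members, lists and tests were chosen with earlier results of these data known. No genome or annotation of GRCz11 was used here, so pairs carry no gene names, gene starts, gene lists or sequences.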

Additional observations from a re-analysis of the deposited data

How the results depend on the processing

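Depth is unknown, and weak peaks outside the authors' adjustment could not be called. No paired analysis was possible because the tables hold 1 value per group, so a replicate block and leaving out each replicate were not run. The cause of the changes below was not tested, except that fewer or more peaks enter under another limit of gap or density.

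Members called (104 for 5-AzaC, 47 for TDCIPP) numbered 12 and 6 at an FDR of 0.01, 197 and 88 at 0.1, 63 and 23 with Benjamini-Hochberg over all peaks, 2 and 1 with gaps up to 500 bp, and 307 and 158 up to 3000 bp. They were 69 for 5-AzaC with fewer than 5 other peaks. Tested approximately against the median of all peaks they were 21 (0 lower, 21 higher) and 14 (2 lower, 12 higher), so the direction of calls depends on where 0 is placed. Pairs with both partners lower (10 and 5) numbered 0 and 0 at an FDR of 0.01, 31 and 8 at 0.1, 6 and 1 over all peaks, 0 and 0 against the median (9 and 1 were then higher at both peaks), 0 and 0 up to 500 bp and 21 and 11 up to 3000 bp. They were 3 for TDCIPP with fewer than 5 other peaks. Shares over all peaks at these other settings are not given, so these counts do not set paired peaks against the rest.

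The correlation between partners (0.37 and 0.27) was -0.17 for 5-AzaC and 0.15 for TDCIPP over the 17 and 11 pairs up to 500 bp, 0.58 and 0.40 with both partners above the median level, 0.59 and 0.42 with both tested (added after seeing the data), and 0.23 by Spearman for 5-AzaC. Without the pairs at a mean level of 6 or more, also added later, it was 0.30 and 0.23. The median change (-0.70 and -0.56) was -0.88 and -0.78 up to 500 bp and -0.76 and -0.66 above the median level, with means of -0.60 and -0.49. Pairs whose partners differ (0 and 0, with 13 and 23 at an unadjusted p under 0.05) were 2 for TDCIPP at an adjusted p under 0.1 and 3 up to 3000 bp. The other 43 of the values recomputed stayed within 1.5 times for counts or within a 95% interval over pairs or peaks. Pairs and peaks share libraries, so that interval does not measure spread between replicates. The 43 include counts of pairs whose partners differ that were 0 under both settings, which says little about stability.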
